A study of Mus musculus with 6 samples.

Results

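The genes described here are 57 ligand, receptor, antagonist and Smad genes of transforming growth factor beta (TGF-beta) and bone morphogenetic protein (BMP) signalling. They were taken from a fixed list of symbols, and all 57 were found among the 21887 protein-coding genes on chromosomes 1 to 19, X and Y of the RefSeq annotation of GRCm38.p6, the assembly that mm10 names. The list holds 32 ligands, the protease Bmp1, 12 receptors, 4 antagonists and 8 Smads.

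MNase-seq had been carried out on sperm of the epididymis and vas deferens. Micrococcal nuclease (MNase) digests accessible DNA, and the fragments of 1 nucleosome's size were taken from a gel. Such fragments mark places where histones remain in a nucleus packed mostly by protamines. The submitters list 4 biological replicates from wild-type C57BL6 mice (WT 1 to 4) and 2 from mutant mice with the K49A exchange, a single amino acid substitution in protamine 1 (K49A 1 and 2). Sperm of all 6 libraries were treated with DNase I, detergent and DTT before MNase. The sources used here do not give age, zygosity, the strain of the mutant or the number of animals behind a library. The assay reads DNA, so the labelled cell type was not checked against marker RNAs.

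Ligands of this family bind pairs of type I and type II serine/threonine kinase receptors. The activated type I receptor phosphorylates receptor-regulated Smads, which join the common Smad4 and enter the nucleus, and the inhibitory Smad6 and Smad7 limit the response. TGF-beta, activin and nodal signals run mainly through Smad2 and Smad3, and BMP signals through Smad1, Smad5 and Smad9. In the embryo the pathway sets up germ layers and body axes and is needed for the founding of the germ line. Genes of this kind, with CpG-rich promoters, are among those where sperm nucleosomes have been described.

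The data are lists of enriched regions (peaks), 1 per library, with 11313 to 27903 peaks in WT and 700 and 1017 in K49A, and no read counts, so the depth of the libraries is unknown. WT 1 had the shortest WT list and the lowest share of called genes. A gene was called at an end if a peak overlapped, by at least 1 bp, a window of 1 kb either side of its low or high annotated end. A gene was called in its body if the midpoint of a peak lay between the ends. The fold of a peak is the authors' enrichment in that library over a background that the sources used here do not describe. Folds and the percentile of a peak's −log10 q within its own list therefore describe a peak inside 1 list and were not compared between genotypes.

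In wild-type sperm most of these genes carried a peak at an end, and in K49A sperm 1 of them did. The number called at an end was 32, 38, 37 and 45 of the 57 in the order WT 1 to 4, or 56.1, 66.7, 64.9 and 78.9%. Each K49A library had 1, or 1.75%. The K49A libraries lay below every WT library. The WT mean was 66.7 ± 9.39% (SD, n = 4), and the K49A mean was lower by 64.9 percentage points. The background over all protein-coding genes was 28.8, 43, 46.3 and 49.9% for the WT libraries in that order, 0.429% for K49A 1 and 0.334% for K49A 2. The members' share was above it in each of the 4 WT libraries. The all-gene share differed by -41.6 percentage points between the genotypes, with no overlap (two-sided exact permutation test over 15 splits, p = 0.133, the smallest that 4 and 2 libraries allow). No p is given for the share of members, since they were chosen with earlier results of these data known.

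The contrast between genotypes depended on the length of the lists. When each list was shortened to its 700 strongest peaks, WT 1 to 4 called 5, 3, 2 and 2 members at an end and each K49A library 1. The difference was then -3.51 percentage points. The members still called in a WT list were Bmp7, Gdf11, Acvr1, Smad2, Smad4 and Smad5, and the K49A member was Bmp7. At that length the mean WT share was 5.26% of the members and 1.80% of all genes.

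Of the members, 26 had an end called by every WT library but by neither K49A list, or 45.6%, against 21.8% of all protein-coding genes. Bmp7 was called in all 6 libraries, a class with 0.11% of all genes, and 0.626% of all genes had a call in any K49A library. Another 20 members were called in 1 to 3 WT libraries (37.7% of all genes were), and 10 in none (40.2% of all genes). The 10 were Bmp4, Bmp5, Bmp10, Bmp15, Mstn, Lefty2, Inhba, Inhbc, Tgfb2 and Chrd. The best member peaks ranked higher within their lists than those of all called genes in each of the 4 WT libraries, with folds of like size. The median percentile of the best member peak was 66.2, 70.2, 77.6 and 82.3 in WT 1 to 4, where all called genes had 61.3, 59.9, 62.0 and 70.8. Receptors and Smads were above all called genes in each WT library, ligands in WT 1 to 3 and antagonists in WT 3 and WT 4. Below them were ligands in WT 4 (55.3) and antagonists in WT 1 (40.7) and WT 2 (23.7). The median folds were 3.21, 2.88, 2.97 and 3.08 for members and 3.26, 2.97, 3.00 and 2.99 for all called genes.

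**Figure D1:**
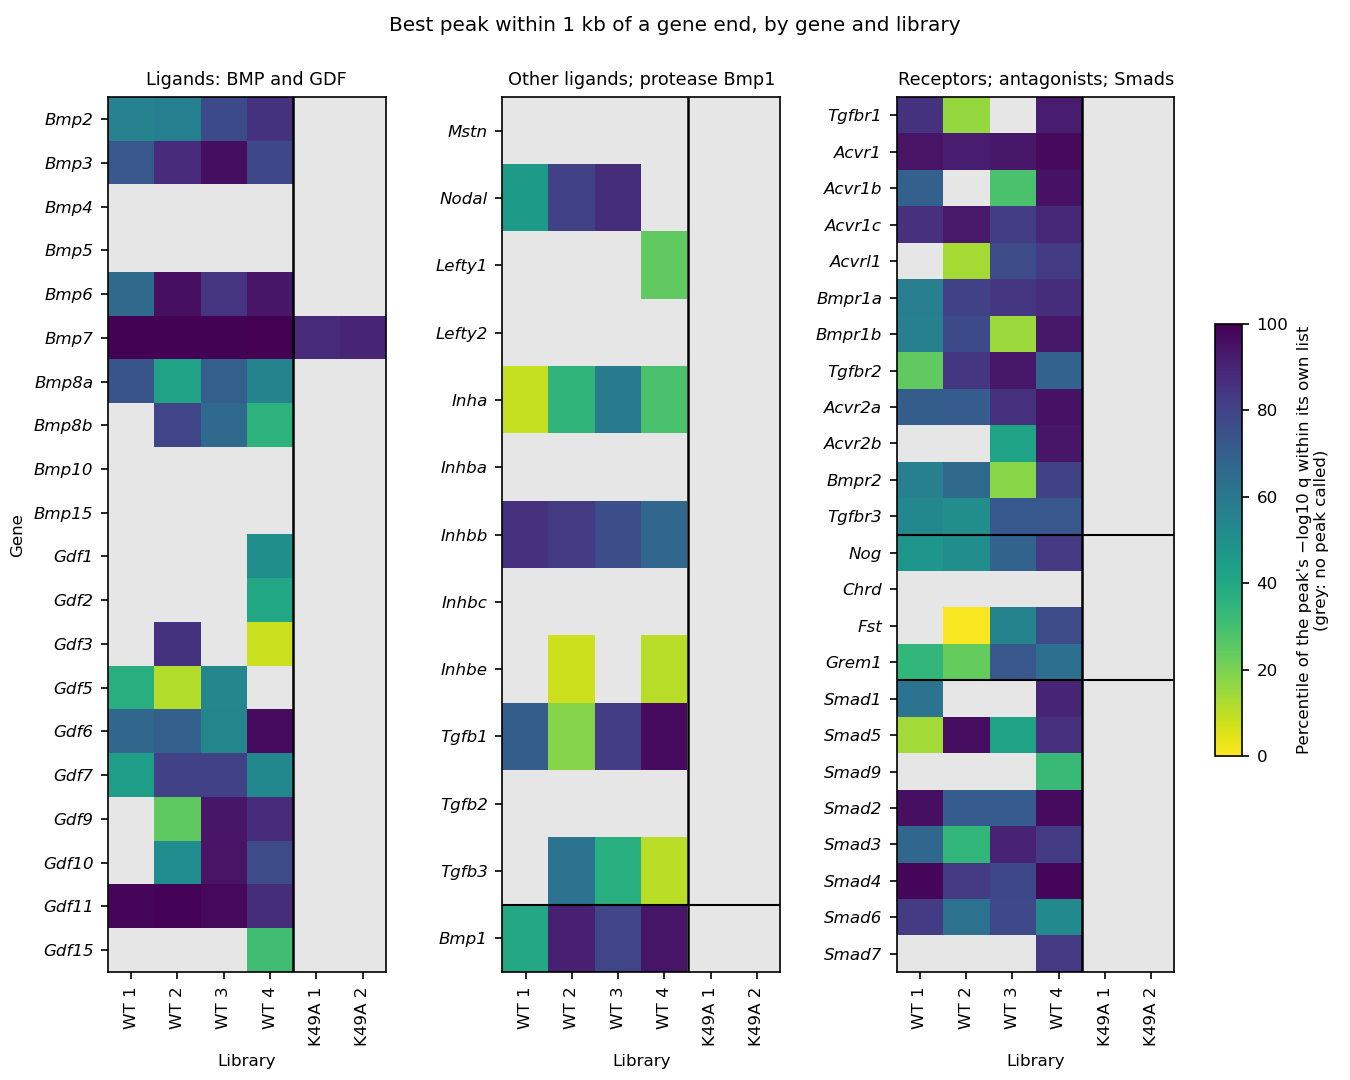
Best peak within 1 kb of a gene end for each of the 57 genes (rows) in each library (columns). Colour gives the percentile of the peak's −log10 q within its own list and grey means that no peak was called. Bmp7 is the only row with colour in the 2 K49A columns, and 10 rows are grey throughout.

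Among the ligands, calls ranged from the strongest of the whole set to none. Of 32 ligand genes, 13, 19, 17 and 21 were called at an end in WT 1 to 4 (54.7 ± 10.7%, SD, n = 4). Every WT list called 11 of them (34.4%, against 22.2% of all coding genes). In no library were 9 called (28.1%, where 40.2% of all coding genes had no WT call). Of the 20 BMP and GDF ligands, 8 were called in all 4: Bmp2, Bmp3, Bmp6, Bmp7, Bmp8a, Gdf6, Gdf7 and Gdf11. Among the 9 genes of activin, inhibin, nodal, lefty and myostatin, 2 were called in all 4 WT libraries, Inha and Inhbb, and 4 in none. Of the TGF-beta ligands Tgfb1 was called in all 4, Tgfb3 in 3 and Tgfb2 in none.

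Bmp7, a ligand needed for kidney and eye development (chromosome 2, 172868012 to 172940321), had the strongest peak of any member. Its fold was 11.4, 7.51, 5.76 and 16.3 across WT 1 to 4, and the peak was at the 99.6, 99.6, 99.6 and 99.9 percentile of those lists. Within the much shorter K49A lists the fold was 7.16 in K49A 1 and 6.41 in K49A 2, at rank 87 of 700 and rank 105 of 1017. It lay over the high end of the gene. In both K49A libraries it spanned 172940232 to 172940451, 220 bp wide with its midpoint 20.5 bp outside the gene. WT 1, WT 2 and WT 4 had the same low border and widths of 394, 438 and 384 bp, and in WT 3 the peak was 812 bp wide, from 172939807 to 172940618. The K49A peak lay inside the WT peak in each of the 4 WT libraries.

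Gdf11, which patterns the vertebral column along the body axis (chromosome 10, 128880524 to 128891718), had folds of 5.56, 5.32, 3.83 and 3.26 in WT 1 to 4. Its peak was at the start of the gene in all 4, with the midpoint between -77.5 and 144.5 bp from it. Bmp6, a regulator of iron homeostasis, had folds of 3.13, 3.28, 2.92 and 3.22, with peaks 870 to 1608 bp wide that reached into the gene. Bmp3, which is known to oppose other BMPs in bone, had 3.22, 3.03, 3.58 and 3.18. Inhbb, which encodes a subunit of activin and inhibin, had 3.22, 2.72, 2.66 and 2.49 in peaks of 1420 to 1665 bp, with midpoints 730 to 1123.5 bp inside the gene. K49A sperm had no end peak at any of these 4.

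Ligands with calls in fewer WT libraries were Bmp8b, Gdf9, Gdf10 and Tgfb3, called in WT 2, WT 3 and WT 4, and Gdf5 and Nodal, called in WT 1, WT 2 and WT 3. Gdf3 and Inhbe were called in WT 2 and WT 4, and Gdf1, Gdf2, Gdf15 and Lefty1 in WT 4 alone, the library with the longest list. Bmp5, Bmp10, Bmp15, Mstn, Lefty2 and Inhbc had no peak at an end or in the body in any of the 6 libraries. Bmp15 is an oocyte factor, Bmp10 acts in the heart, Mstn (myostatin) limits muscle growth and Lefty2 is an inhibitor of nodal. Of all coding genes, 29.9% had neither kind of peak in WT, against 6 of the 57 members.

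Bmp1 shares its name with the ligands but encodes a secreted protease that cleaves procollagen and the antagonist chordin. It was called at its high end in WT, with folds of 2.93, 3.16, 2.98 and 3.35 in WT 1 to 4, and had no K49A peak. The peak also lay within 1 kb of an end of Sftpc, so it cannot be assigned to 1 of the 2 genes. The best peaks of Acvr1, Gdf1 and Gdf9 were likewise within 1 kb of an end of a neighbour in each library that called them, Upp2 for Acvr1, Cers1 for Gdf1 and Uqcrq for Gdf9. In WT 1, WT 3 and WT 4 the same held for the best peaks of Tgfb1, near B9d2, and of Gdf7, near Ldah.

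At gene ends the mean WT share of receptor genes was above those of ligands, antagonists and Smads. In WT 1 to 4, 10, 10, 11 and 12 of 12 receptor genes were called at an end (89.6 ± 7.98%, SD, n = 4), and in K49A none was. Of all coding genes, 0.429 and 0.334% were called in K49A 1 and K49A 2. A count of 0 in a group this small is near that share. The receptor share was above the ligand share in each of the 4 WT libraries, and in WT 4 it equalled the Smad share of 100%. In the gene body the order was another, with a mean WT share of 84.4% for Smads, 81.3% for antagonists, 68.8% for receptors and 60.2% for ligands. At an end, all 12 receptor genes were called in at least 2 WT libraries and 8 in all 4 (66.7%, against 22.2% of all coding genes). Of the 7 type I receptors, Acvr1, Acvr1c, Bmpr1a and Bmpr1b were called in all 4, and Tgfbr1, Acvr1b and Acvrl1 in 3. Of the 4 type II receptors, Tgfbr2, Acvr2a and Bmpr2 were called in all 4 and Acvr2b in WT 3 and WT 4. The coreceptor Tgfbr3 (betaglycan) was called in all 4.

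Acvr1, a type I receptor for BMPs (chromosome 2, 58446438 to 58566828), had folds of 3.97, 3.27, 3.08 and 3.64 in WT 1 to 4 and percentiles of 91.9 to 97.4. Its peaks were 545 to 1493 bp wide, with midpoints at -720 to -268.5 bp from the start, where a negative distance is upstream. Acvr1c, a type I receptor for nodal and some activins, had 3.83, 3.61, 3.29 and 3.40. Acvr2a, the activin type II receptor, had 3.43, 2.93, 3.38 and 3.69. At Bmpr2, the BMP type II receptor, the peaks of all 4 WT libraries lay wholly upstream of the start, with midpoints at -830 to -559.5 bp. Bmpr1b was called at its high annotated end in all 4 WT libraries, which is 187321 bp from the nearest of the starts listed for it, and no WT peak lay within 1 kb of those starts.

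**Figure D2:**
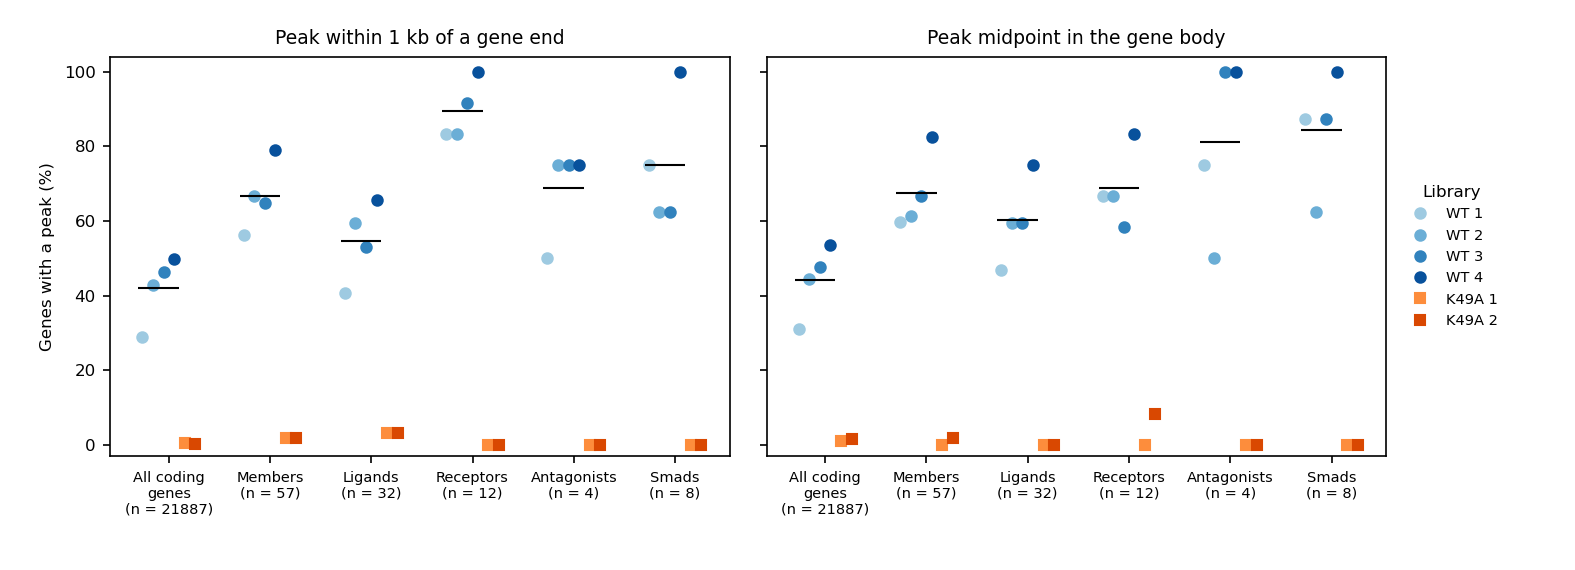
Percent of genes with a peak at a gene end (left) and with a peak midpoint in the gene body (right), by gene group. Each point is 1 library, circles for WT and squares for K49A, and the line is the WT mean. Receptors sit between 83.3 and 100% at gene ends in WT, ligands between 40.6 and 65.6%, and all coding genes between 28.8 and 49.9%.

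Antagonists bind ligands outside the cell. Of the 4, Nog (noggin) and Grem1 (gremlin) were called at an end in all 4 WT libraries, Fst (follistatin) in WT 2, WT 3 and WT 4, and Chrd (chordin) in none. Nog had folds of 2.72, 2.44, 2.55 and 2.72 in WT 1 to 4, and Grem1 2.88, 2.58, 2.91 and 2.83. Each fold was below the median of the called members in its library. No antagonist was called in K49A, where 0.429 and 0.334% of all coding genes were called at an end.

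Among the Smads, 6, 5, 5 and 8 of 8 were called at an end in WT 1 to 4 (75 ± 17.7%, SD, n = 4), and 0 in K49A. The share of all coding genes was 28.8 to 49.9% in WT, 0.429% in K49A 1 and 0.334% in K49A 2. Smad2 and Smad3 of the TGF-beta and activin branch, the common Smad4, the BMP-branch Smad5 and the inhibitory Smad6 were called in all 4 WT libraries. Smad1 was called in WT 1 and WT 4, and Smad9 and Smad7 at an end in WT 4 alone. Smad4 had folds of 5.27, 3.23, 3.15 and 4.29 in WT 1 to 4, and Smad2 had 4.69, 3.10, 3.34 and 3.91. Both were higher in WT 1 and WT 4 than in WT 2 and WT 3. The same order held for the median fold of the called members, 3.21 and 3.08 against 2.88 and 2.97. The median of all called genes was highest in WT 1 (3.26), with 2.97, 3.00 and 2.99 in WT 2 to 4. The order is thus not particular to Smad2 and Smad4.

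The counts per subgroup moved with the threshold. With a −log10 q of at least 2, every WT list called 7 of 32 ligands and 4 of 12 receptors at an end. It also called 0 of 4 antagonists and 3 of 8 Smads. Receptors were then not ahead of Smads. The counts without the threshold were 11, 8, 2 and 5, for ligands, receptors, antagonists and Smads in that order. The members called by every WT list and no K49A list were 13 at this threshold, where 8.34% of all genes were. With windows of 500 bp the Smad count was 3 and the antagonist count 1.

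The gene bodies gave a like contrast between genotypes. In WT 1 to 4, 34, 35, 38 and 47 of the 57 genes were called in the body (67.5 ± 10.4%, SD, n = 4), in K49A 1 none and in K49A 2 only Tgfbr3. Of all coding genes 31.2, 44.4, 47.6 and 53.5% were called in WT 1 to 4, 1.08% in K49A 1 and 1.45% in K49A 2, and 2.07% in any K49A library. A body call by every WT list and no K49A list was found for 25 members (43.9%) against 21.4% of all genes, and 7 members had no WT body call, against 34.8% of all genes. The median length of members was greater, 21.8 kb against 17.2 kb, although their mean length was not. A long gene has more room for a peak. Per Mb of gene body there were 14.3, 18.5, 20.8 and 25.4 peaks in members in WT 1 to 4, and 7.68, 12.6, 14.0 and 17.5 in all coding genes. Receptors, the longest subgroup with a median of 89.8 kb, had 8.68 ± 1.44 peaks per Mb and ligands, at 9.05 kb, had 33.1 ± 8.84 (SD, n = 4 each). The K49A 2 peak in Tgfbr3 (chromosome 5, 107189143 to 107189447) lay 100334 bp inside the high end, had a fold of 3.20 and overlapped no WT peak. With peaks within 1 kb of the ends left out, the mean WT share of members called in the body was 31.6%. For all coding genes it fell in the same way, from 44.2% to 19.7%. Much of the body signal thus lay close to an end, in members as in all coding genes.

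There were 4 members with no WT peak at an end but a body peak in all 4 WT libraries, Bmp4, Inhba, Tgfb2 and Chrd, or 7.02% of members against 2.93% of all coding genes. At Chrd the listed start is 1702 bp inside the low annotated end, and all 4 WT peaks (folds 2.97, 3.23, 3.48 and 2.50) covered it. At Tgfb2 it is 3708 bp inside the high end, and a peak lay within 1 kb of it in all 4 WT libraries. At Inhba, an activin subunit gene, the start is 7595 bp inside and a peak lay near it in WT 2, WT 3 and WT 4. In these 3 genes the annotated end was thus not the place of the listed start. At Bmp4, which is needed for mesoderm and for the founding of germ cells, the start is at the high end. Its peaks had midpoints 2439 to 3048.5 bp inside the gene in all 4 WT libraries, with a further peak at 4788 bp in WT 2. Smad7 had a peak of 762 to 983 bp in all 4 WT libraries whose midpoint was 1654 to 1688.5 bp inside the low end.

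**Figure D3:**
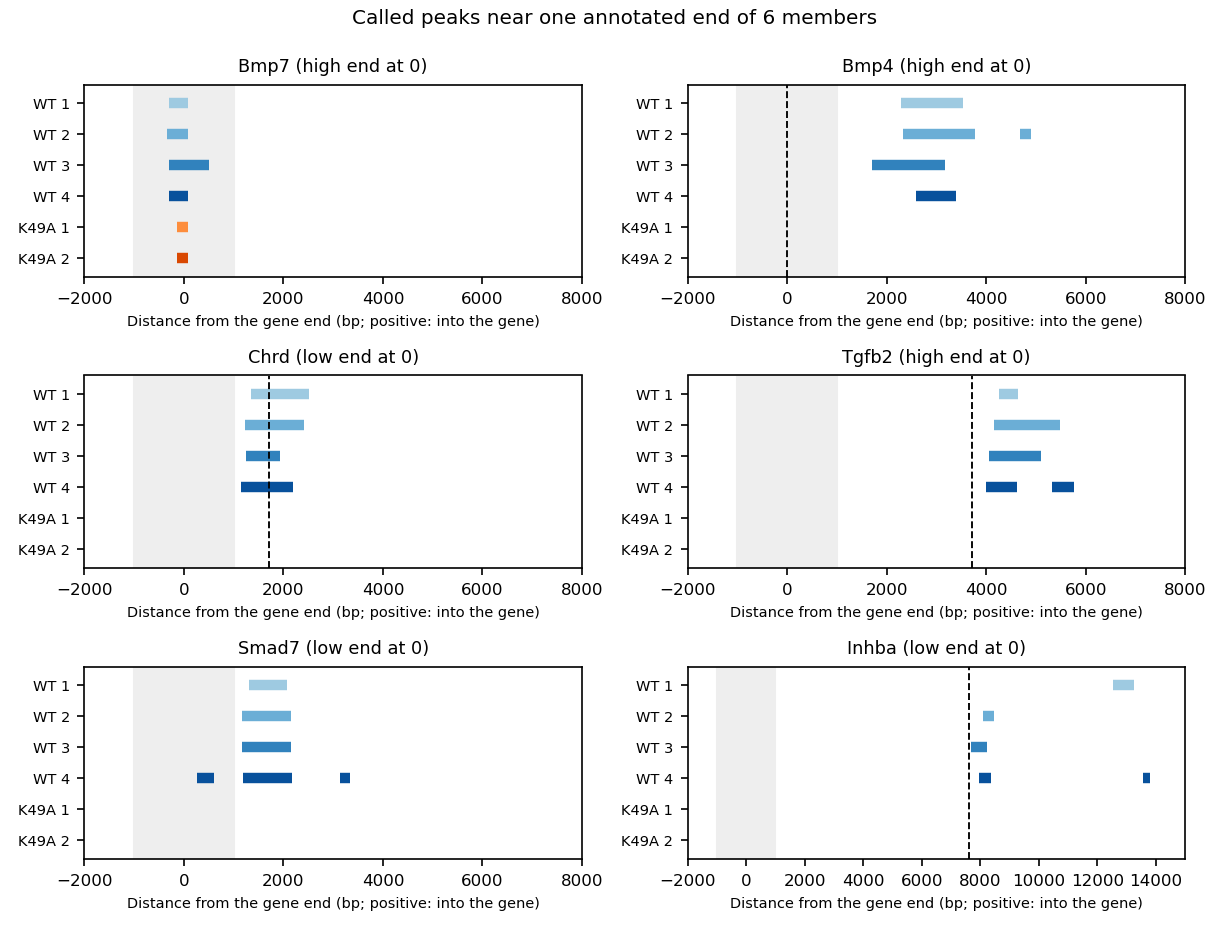
Called peaks (bars) in each library near 1 annotated end of 6 members, by distance from that end in bp, positive into the gene. Grey marks the window of 1 kb either side of the end and the dashed line a listed start, where the promoter table holds one. At Bmp7 all 6 libraries have a bar over the end, and at the other 5 genes the K49A rows are empty.

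The strand and start of transcription were known for 39 of the 57 members, from RefSeq promoter sequences of GRCm38.p6 that run from 250 bases before to 50 after a start. Within 1 kb of a listed start, 17 of the 39 were called by every WT list and no K49A list, or 43.6%, against 23.2% of 17492 coding genes with a listed start. At the finish of the gene the corresponding count was 1 of 39, Gdf7, against 0.915% of those coding genes, and 33 of the 39 had no WT call there, against 91.4%. The peaks at gene ends were thus mostly at starts. The finish windows of Gdf1, Inha and Inhbe were called in 1 WT library and those of Tgfb1 and Grem1 in 2. Gdf7 is a short gene, with peaks at both ends. The best peak of Inha was at its low end in WT 1, WT 2 and WT 3, where it also lay within 1 kb of an end of Obsl1, and at the high end in WT 4.

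The midpoints of the members' best peaks lay more often inside the gene than upstream of it. Of 97 best WT peaks at an end of these members, 57 covered a start (58.8%). Of the 87 whose midpoint lay within 1500 bp of a start, 66 had it inside the gene and 21 upstream, with a median of 240.5 bp inside. Peaks of 1 gene in different libraries share its sequence and are not independent. The same positions were not counted over all coding genes, so they are not shown to be particular to the members. Acvr1, Bmpr2 and Gdf10 had their midpoints upstream in each library that called them, whereas Bmp6, Inhbb, Grem1 and Tgfbr2 had them inside the gene in all 4 WT libraries.

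**Figure D4:**
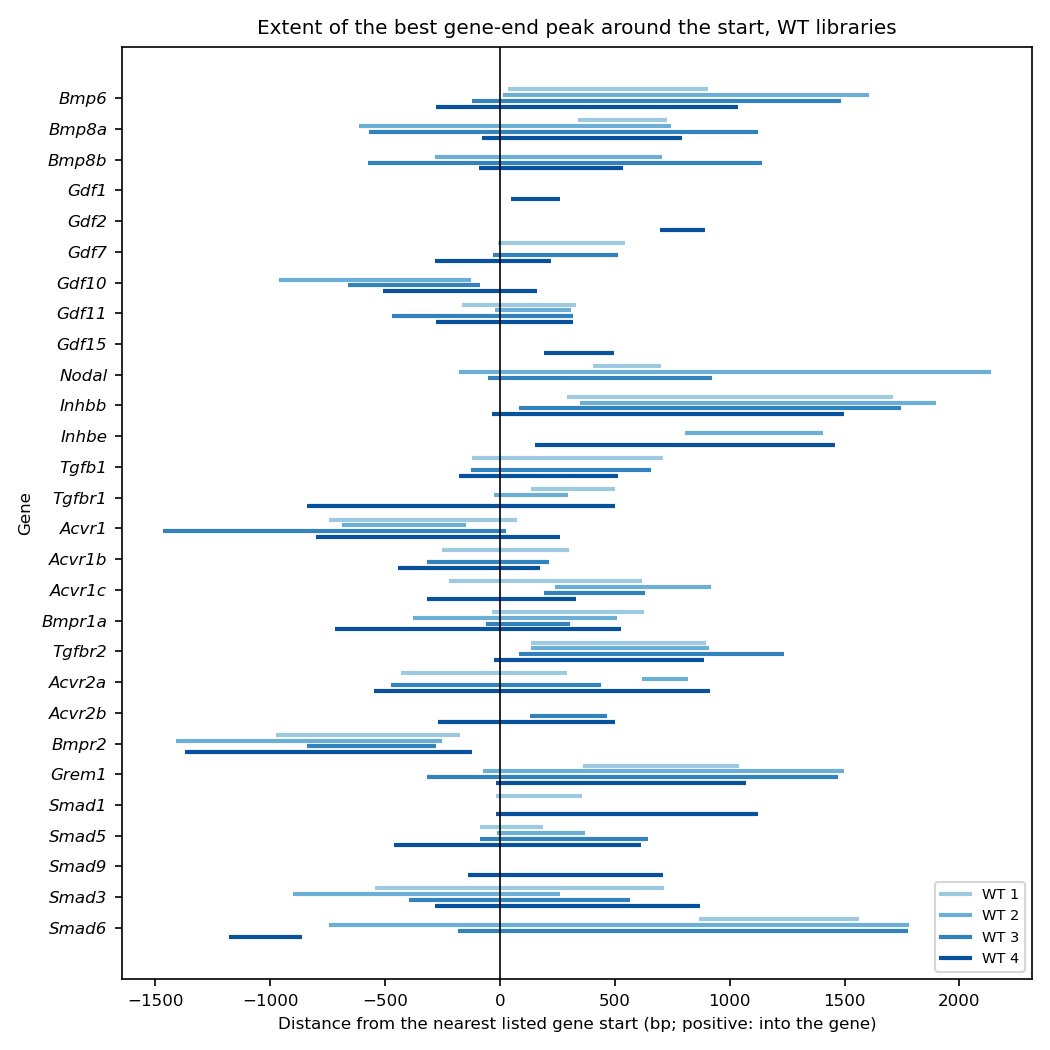
Extent of the best gene-end peak in each WT library, by distance in bp from the nearest listed start (0), positive into the gene, for the members with a listed start and a peak midpoint within 1500 bp of it. Bars at Acvr1, Bmpr2 and Gdf10 lie mostly left of the start, and those at Bmp6, Inhbb, Grem1 and Tgfbr2 mostly right of it.

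Promoters called in wild-type sperm held more CpG than those that were not. In the 300 bases of the table, the 17 members called at the start nearest their annotated end in all 4 WT libraries had a median of 28 CpG and a ratio of observed to expected CpG of 0.80. The 15 members called in 1 to 3 WT libraries had 23 and 0.69, and the 7 called in none had 4 and 0.28. Among these 7 is Bmpr1b, which every WT list called at its annotated end, 187321 bp from the start used here. All coding genes with a listed start had the same order, with medians of 0.83, 0.73 and 0.20. The promoters with a ratio over 0.6 were 24 of the 39 members (61.5%) and 48.4% of coding genes. Of those 24, every WT list called 15 (62.5%) and 0 had no WT call, against 38.9 and 9.60% of such coding genes. Of the 15 members with a ratio of 0.6 or less, 2 were called in all 4 (13.3%) and 7 in none (46.7%), against 7.11 and 70.0% of such coding genes.

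The subgroups also differed in this sequence measure. Of 10 receptor promoters 9 had a ratio over 0.6, and of 22 ligand promoters 8 had. The exception among the receptors was Bmpr1b, at a listed start far inside the gene. Within the promoters over 0.6, the mean WT share called at the start was 88.9% for receptors, 81.3% for ligands and 67.5% for all such coding genes. What part CpG content has in the calls was not tested.

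**Figure D5:**
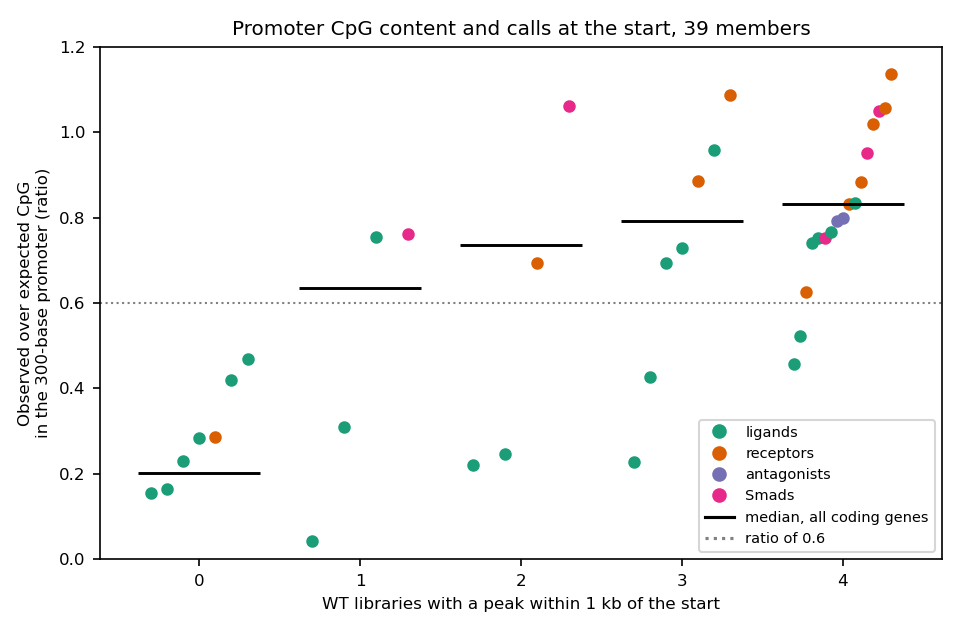
Ratio of observed to expected CpG in the 300-base promoter of 39 members, by the number of WT libraries with a peak within 1 kb of that start. Points are genes, spread sideways in order of the ratio, black lines are medians of all coding genes in the same class, and the dotted line is a ratio of 0.6. All 7 members in the class of 0 libraries lie below the dotted line, and 15 of 17 in the class of 4 lie above it.

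The sequences of 4 promoters show this range, each 5′ to 3′ on the strand of the gene (RefSeq, GRCm38.p6) with every CpG in capitals. CG reads the same on both strands. Gdf11 and Acvr1 are the highest ranked members with a promoter in the table, Bmp15 has the fewest CpG among members with no peak at an end, and Tgfb2, chosen after its values were seen, is a CpG-poor promoter with a peak near its start. The Gdf11 promoter is at chr10:128891669-128891968 on the minus strand and has 36 CpG and 80.7% GC.
Gdf11: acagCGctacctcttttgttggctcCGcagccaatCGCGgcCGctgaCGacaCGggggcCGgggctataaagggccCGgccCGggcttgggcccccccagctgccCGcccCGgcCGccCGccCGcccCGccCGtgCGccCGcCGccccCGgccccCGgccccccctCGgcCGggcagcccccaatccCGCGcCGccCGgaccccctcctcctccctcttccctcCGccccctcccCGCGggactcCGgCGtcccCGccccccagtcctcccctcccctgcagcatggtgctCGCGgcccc
The Acvr1 promoter is at chr2:58566779-58567078 on the minus strand and has 51 CpG and 83.7% GC.
Acvr1: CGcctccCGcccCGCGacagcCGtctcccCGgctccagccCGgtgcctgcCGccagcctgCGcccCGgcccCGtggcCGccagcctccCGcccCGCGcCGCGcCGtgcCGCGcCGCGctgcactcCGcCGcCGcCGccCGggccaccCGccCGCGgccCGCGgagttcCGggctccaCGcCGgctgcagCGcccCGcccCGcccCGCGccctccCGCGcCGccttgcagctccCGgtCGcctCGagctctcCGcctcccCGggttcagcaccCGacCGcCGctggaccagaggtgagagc
The Bmp15 promoter is at chrX:6320675-6320974 on the minus strand and has 2 CpG and 41.7% GC.
Bmp15: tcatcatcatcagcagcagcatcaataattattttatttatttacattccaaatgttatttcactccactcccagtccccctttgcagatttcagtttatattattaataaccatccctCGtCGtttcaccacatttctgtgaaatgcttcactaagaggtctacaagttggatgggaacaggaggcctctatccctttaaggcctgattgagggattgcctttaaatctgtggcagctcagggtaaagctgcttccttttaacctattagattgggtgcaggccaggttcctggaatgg
The Tgfb2 promoter is at chr1:186705940-186706239 on the minus strand and has 10 CpG and 54.3% GC.
Tgfb2: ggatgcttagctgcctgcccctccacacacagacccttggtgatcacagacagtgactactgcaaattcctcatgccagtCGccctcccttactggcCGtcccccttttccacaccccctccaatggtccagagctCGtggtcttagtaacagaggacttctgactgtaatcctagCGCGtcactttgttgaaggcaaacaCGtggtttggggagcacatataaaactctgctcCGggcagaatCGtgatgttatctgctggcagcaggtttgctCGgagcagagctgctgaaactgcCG

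The peaks bear on these stretches in different ways. At Gdf11 the WT peaks ran from 128891386 to 128891885 in WT 1, and in all 4 WT libraries they covered the start. At Acvr1 the peak of WT 3, from 58566802 to 58568294, took in nearly all of the printed promoter and more than 1 kb upstream. At Tgfb2 the WT 1 peak, from 186705050 to 186705441, lay downstream of the printed bases, and none of the WT peaks reached the start itself. Bmp15 had no peak here in any library.

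Other genes of the pathway had a like pattern of calls in wild-type sperm. A list of 50 further modulators, processing enzymes and targets had 24, 30, 33 and 37 genes called at an end in WT 1 to 4 (62.0 ± 11.0%, SD, n = 4) and 0 in both K49A libraries. The WT shares of this list were 48, 60, 66 and 74%, against 28.8, 43, 46.3 and 49.9% of all protein-coding genes. Of the 50, 20 were called by every WT list, or 40.0%, against 22.2% of all protein-coding genes. The highest ranked were Ski, a corepressor that binds Smads, with folds of 6.0, 4.73, 4.49 and 3.01 in WT 1 to 4, and Smurf2, a ubiquitin ligase for Smads and receptors, with 3.86, 3.41, 3.93 and 3.73. Ltbp1, which holds latent TGF-beta in the matrix, had 3.84, 3.30, 2.87 and 3.33, and Bmper, a BMP-binding regulator, had 3.50, 3.15, 3.02 and 3.23. In K49A the list had 1 body peak, in Ltbp2 in K49A 1. Id2, Sostdc1, Chrdl1, Amhr2, Furin, Ltbp4 and Tll2 had no WT peak at an end, although Furin and Ltbp4 had a body peak in all 4 WT libraries.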

How the data were processed

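The deposited files are broad peak lists, 1 per library. The submitters' processing notes name mm10, MACS2, BWA, SAMtools, Picard and FastQC, without versions. Settings and any input control were not found in the labels. Every deposited peak carries the authors' fold enrichment, a ratio over a background that the labels do not describe, with its −log10 p and −log10 q. The deposited score is 10 times the −log10 q with the decimals dropped, for all but at most 0.197% of the peaks of a list. Each list ends at a −log10 q of about 1, the lowest value being 1.00 to 1.04.

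Samples were grouped and numbered by their titles, where MT stands for K49A. Coordinates are 1-based, on the authors' build. Peaks were placed against RefSeq genes of GRCm38.p6 with Python 3.11.15, and placement was tested on simulated peaks. Promoter sequences were RefSeq's. Entries were found for 39 members and were not found for 18, among them Bmp7 and Smad4. The members and lists were chosen with earlier results of these data known. Per-library values are given for members with a K49A peak, the 10 members with the highest mean WT percentile, and the 2 highest receptors, antagonists and Smads. Some further values were chosen after they were seen. Alternatives were other thresholds, windows, list lengths and left-out libraries.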

Additional observations from a re-analysis of the deposited data

Results flagged for a closer look

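The share of the 4 antagonists with a gene-end peak was 50% in WT 1 and 75% in each of the other 3 WT libraries, and was flagged for the gap. The gap is 1 gene, Fst, which was not called in WT 1. In all, 37 groups of 4 WT values were examined, by the gap to the outermost value over the range of the 4. Chance flags about 1 in 20 groups of continuous values. That rate does not hold here, since with 3 equal values the ratio is 1 whatever the gap. The flag therefore does not show that WT 1 differed.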

How the results depend on the processing

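No alternative reversed the differences between genotypes, but their size depended on the peaks kept. The difference in the share of members at gene ends, -64.9 percentage points, was -48.7 with a −log10 q of at least 2, -45.2 when the −log10 p had to reach 5, and -3.51 with lists of 700 peaks. In the body it was -66.7, and under the same 3 settings -47.4, -45.2 and -2.19; over 1 kb from both ends it was -30.7. For all genes, -41.6 became -27.4, -24.0 and -1.47, where the exact permutation p stayed at 0.133, the smallest that 4 and 2 libraries allow. The 26 members in all 4 WT and no K49A library became 13, 10 and 0 under those 3 settings, and the 13 and the 10 were all among the 26. The share of all genes in that class went from 21.8% to 8.34, 6.93 and 0.0685%. Windows of 500 bp and 2 kb gave 20 and 29 members, and 18.6 and 24.5% of all genes. The count of 0 follows in part from the 700 peaks kept per list.

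Leaving out each library in turn gave -68.4 to -60.8 at gene ends, -69.3 to -61.7 in the body, -46.0 to -39.0 for all genes and 26 to 32 for the count. With the titles' replicate numbers 1 and 2 as a replicate block the differences were -59.6 at gene ends, -59.6 in the body and -35.5 for all genes. The labels do not say that a number marks shared animals or days, and the deposited names liken K49A 2 to WT 4 instead of WT 2, a pairing that was not fitted. Depth is unknown, so a gene without a peak may lie below what a list could call.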
